A study of Mus musculus with 265 samples.

Results

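The 711 regions described here are open-chromatin regions of a mouse pre-B cell line that were detected in a smaller share of cells after nuclear Ikaros was induced. They were chosen by their signal in single-cell ATAC-seq. A region had to be detected in at least 15 cells in all, and the lower of its shares of cells with signal in the 0 h runs had to be at least 2 times the higher of its shares in the 24 h runs. Of the 20103 regions in the deposited matrix, 8906 were detected in at least 15 cells, and 711 of these met the rule, or 7.98% of the regions tested. Since these shares chose the regions, the differences in share between time-points below are descriptions and carry no test.

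The cells were ERt2-Ikaros inducible B3 cells, in which Ikaros carries the hormone-binding part of the estrogen receptor and moves into the nucleus in the presence of 4-hydroxytamoxifen. The 0 h cells were collected before the drug. The 24 h cells received 20 mM of 4-hydroxytamoxifen, the concentration the labels give, and a further dose at about 12 hours. All cells came from this engineered line, and no labelled sample carries the drug without the ERt2-Ikaros fusion, so the drug and nuclear Ikaros cannot be told apart. Each time-point was captured in 2 Fluidigm C1 runs, with 48 and 47 cells at 0 hours and 60 and 72 cells at 24 hours. No source says whether the runs of a time-point came from separate cultures, so the spread between them may be technical.

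Ikaros, encoded by Ikzf1, is a zinc finger DNA-binding protein of lymphocytes that recognises a short GGGAA core and recruits chromatin remodelling complexes. In pre-B cells it is known for ending the proliferation that the pre-B cell receptor and interleukin-7 sustain, and for lowering genes such as those of the surrogate light chain and Myc. ATAC-seq marks DNA that Tn5 transposase can reach. In a single cell most open regions go undetected, so a share of cells with signal depends on how open a region is and also on how deeply the cells were sequenced.

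The depth of the runs was unequal. The median cell held 2898 counts in regions in 0 h run 1, 1787 in 0 h run 2, 1839.5 in 24 h run 1 and 1676 in 24 h run 2. The run with the deepest cells was thus a 0 h run, and the other 0 h run was close to the 24 h runs. No 2 cells had identical values. At least 1 tested region of the B-cell defining genes was detected in 93.8% and 78.7% of 0 h cells and in 66.7% and 61.1% of 24 h cells. The matching shares were 56.3%, 34%, 33.3% and 16.7% for T-lineage genes, 39.6%, 34%, 21.7% and 20.8% for myeloid genes, and 54.2%, 38.3%, 46.7% and 25% for erythroid and megakaryocyte genes. These lists hold 14, 5, 4 and 6 tested regions, so their shares cannot be compared with each other. In each list 0 h run 1 had the highest share and 24 h run 2 the lowest.

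The sequences of 8 of the regions on mm10 show the kinds of DNA in the set. The first has the largest difference between time-points of all 711, and the others are the regions with the largest differences at genes of the B-lineage and signalling lists. Capitals mark the Ikaros core GGGAA, read on either strand, so that TTCCC is the same core on the opposite strand.
Them5, chr3:94334560-94334710: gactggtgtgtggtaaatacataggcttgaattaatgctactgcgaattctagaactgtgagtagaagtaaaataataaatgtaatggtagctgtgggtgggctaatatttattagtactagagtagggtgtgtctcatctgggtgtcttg
E2f3, chr13:29986195-29986344: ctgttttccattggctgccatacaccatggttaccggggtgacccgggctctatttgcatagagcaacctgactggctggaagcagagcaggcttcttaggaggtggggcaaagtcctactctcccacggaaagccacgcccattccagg
Mef2c, chr13:83572146-83572285: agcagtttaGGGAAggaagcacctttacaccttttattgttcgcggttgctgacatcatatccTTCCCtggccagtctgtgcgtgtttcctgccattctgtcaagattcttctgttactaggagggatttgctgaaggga
Cd93, chr2:148443473-148443586: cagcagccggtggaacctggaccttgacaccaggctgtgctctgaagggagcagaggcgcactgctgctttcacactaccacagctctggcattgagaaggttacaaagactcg
Dntt, chr19:41039257-41039387: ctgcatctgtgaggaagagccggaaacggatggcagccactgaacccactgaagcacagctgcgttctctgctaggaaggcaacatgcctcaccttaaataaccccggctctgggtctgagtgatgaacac
Inpp5d, chr1:87621989-87622091: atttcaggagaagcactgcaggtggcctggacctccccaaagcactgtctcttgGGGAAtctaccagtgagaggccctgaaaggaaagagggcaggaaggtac
Vpreb1, chr16:16869268-16869375: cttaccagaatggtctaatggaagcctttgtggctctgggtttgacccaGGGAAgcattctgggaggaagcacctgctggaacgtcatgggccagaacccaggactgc
Socs2, chr10:95389202-95389356: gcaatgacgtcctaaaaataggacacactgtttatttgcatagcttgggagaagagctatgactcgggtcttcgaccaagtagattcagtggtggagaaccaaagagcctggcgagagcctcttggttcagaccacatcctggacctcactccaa
The Mef2c region holds the core on both strands, the Inpp5d and Vpreb1 regions hold it on the forward strand, and the other 5 do not hold these letters. The region near Them5 has a GC content of 38.4%, the lowest of the 8, and matches the mitochondrial genome at 94.8% identity over 116 bp.

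Over the 711 regions, the median share of cells with signal was 18.8% in 0 h run 1, 14.9% in 0 h run 2, 3.33% in 24 h run 1 and 2.78% in 24 h run 2. Over all regions tested, the medians were 14.6%, 8.51%, 10.0% and 9.72%. The median ratio of the lower 0 h share to the higher 24 h share was 2.71 among the regions with any 24 h signal, and the highest was 16.5. A ratio of at least 3, or no 24 h signal at all, was seen in 312 regions. The lower 0 h share was in run 2 for 491 regions and in run 1 for 220. The threshold cut a continuous range. Just inside it, the region 11.7 kb from the Zfp239 start had signal in 16.7% and 21.3% of 0 h cells and in 8.33% and 6.94% of 24 h cells, and regions 420 bp from the Ubap2 start and 54 bp from the Elmsan1 start had the same ratio of 2. Just outside were regions at Zfp13, Siae and Platr25 with ratios of 1.97, 1.96 and 1.94.

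**Figure D1:**
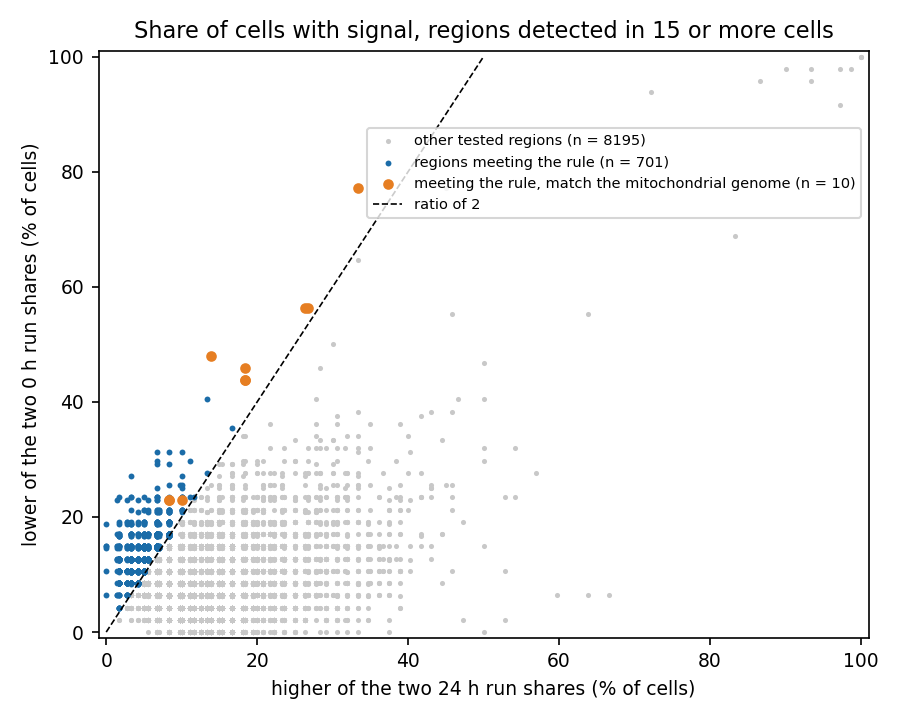
Each point is 1 of the 8906 regions detected in at least 15 cells, with the higher 24 h share of cells with signal on the x axis and the lower 0 h share on the y axis, both in percent of the cells of a run. The 711 regions that met the rule lie on or above the dashed line of ratio 2, most of them in the lower left corner, and the 10 that match the mitochondrial genome include those with the highest 0 h shares.

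The largest differences in share belonged to regions with mitochondrial sequence. The region 7.46 kb upstream of Them5 had signal in 77.1% and 80.9% of 0 h cells (37 of 48 and 38 of 47) and in 33.3% and 23.6% of 24 h cells (20 of 60 and 17 of 72). The exact 95% binomial intervals of these 4 shares were 62.7 to 88%, 66.7 to 90.9%, 21.7 to 46.7% and 14.4 to 35.1%. The next 4, near Il12b, Cdh11, Arhgef4 and Kctd3, also matched the mitochondrial genome, and so did those near Chst3 and Dnajc27. These 7 were among the 8 regions with the largest differences, the exception being the E2f3 promoter. Nuclear copies of mitochondrial DNA are common in mammalian genomes. In all, 23 tested regions matched the mitochondrial genome, 10 of them met the rule, and the identity of these 10 ranged from 84% to 94.8%.

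Across the 10 mitochondria-like regions the mean share of cells with signal was 44% and 51.7% in the 0 h runs and 16.7% and 13.3% in the 24 h runs. Per 1000000 counts of a run they summed to 2480, 5010, 1490 and 1210, so the 0 h runs stayed higher, but 0 h run 1 was less than 2 times 24 h run 1. With run sums divided by run totals in place of shares of cells, 1 of the 10 still met the rule. All 27 regions of the matrix with such a match together took 0.772% and 1.47% of the counts in the 0 h runs and 0.816% and 0.764% in the 24 h runs, so that 0 h run 2 was high and 0 h run 1 was close to the 24 h runs. The part of mitochondrial reads in these differences was not tested. Without these regions, 701 remained.

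The E2f3 promoter held the largest difference among regions without mitochondrial sequence. E2f3 encodes a transcription factor of the E2F family that drives entry into S phase. Its region 206 bp upstream of a start site, chr13:29986195-29986344, had signal in 45.8% and 40.4% of 0 h cells (22 of 48 and 19 of 47) and in 13.3% and 11.1% of 24 h cells (8 of 60 and 8 of 72). That the runs of the time-points do not overlap is fixed by the rule. The exact 95% interval over cells was 26.4 to 55.7% in 0 h run 2 and 5.94 to 24.6% in 24 h run 1, and the fit over runs described below did not call this region (edgeR adjusted p = 0.312). A further E2f3 region 17.3 kb upstream also met the rule, at 14.6% and 12.8% against 5% and 1.39%. The region beside another E2f3 start, 33 bp upstream, did not, with 14.6% and 2.13% of 0 h cells and 5% and 8.33% of 24 h cells.

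The remaining 4 of the 12 largest differences lay away from start sites. The region near Ell2, chr13:75541501-75541636, 165.2 kb from its start, had signal in 31.2% and 36.2% of 0 h cells and in 6.67% and 2.78% of 24 h cells. An intron of Mad1l1, a gene of the spindle checkpoint, at chr5:140264141-140264246, had signal in 27.1% and 29.8% against 3.33% and 2.78%. Near St3gal1, a sialyltransferase gene, the shares were 33.3% and 29.8% against 6.67% and 5.56%. A region 4.88 kb upstream of Lax1, an adaptor that dampens antigen receptor signalling in lymphocytes, had 31.2% and 38.3% against 6.67% and 8.33%. In each of these 4, no 24 h run exceeded 8.33%.

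**Figure D2:**
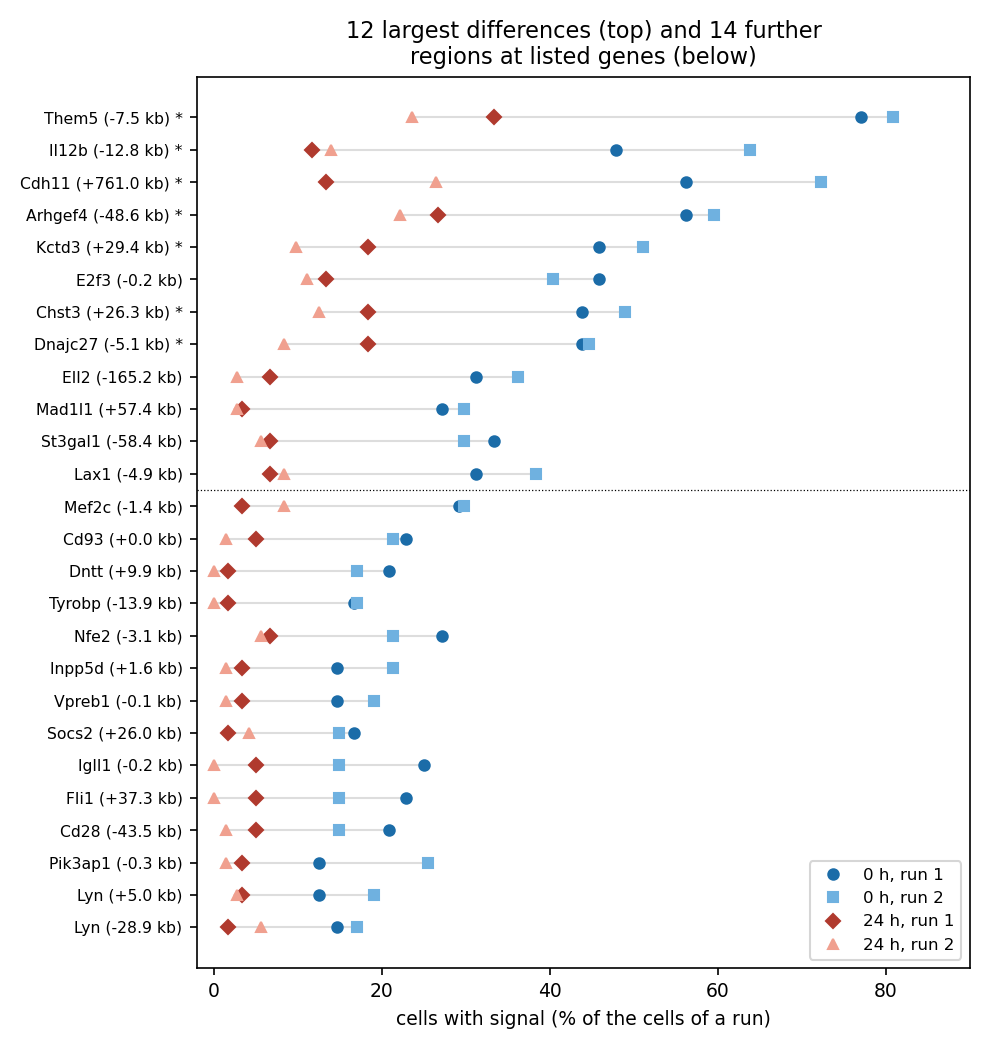
The x axis gives the percent of the cells of a run with signal, and each row is a region named by the closest protein-coding start site and its distance, with 1 symbol for each of the 4 runs. The upper 12 rows are the largest differences and the lower 14 are regions at listed genes, starred rows match the mitochondrial genome, and the E2f3 promoter at 45.8% and 40.4% against 13.3% and 11.1% has the widest gap without a star.

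The pre-B cell receptor list held 31 tested regions, of which 8 met the rule (25.8%, against 7.98% of all regions tested), at Vpreb1, Igll1, Lyn, Plcg2, Pik3ap1 and Inpp5d. Here and for the lists below, the 7.98% is not matched for place. The rule was met by 2.85% of tested regions within 1 kb of a start and by 17.2% to 22.4% of those in exons, introns and intergenic DNA. Vpreb1 and Igll1 encode the components of the surrogate light chain, the partner of the mu heavy chain in the pre-B cell receptor. The Vpreb1 promoter region shown above, 66 bp upstream of the start, had signal in 14.6% and 19.1% of 0 h cells (7 of 48 and 9 of 47) and in 3.33% and 1.39% of 24 h cells (2 of 60 and 1 of 72). This sequence has 2 copies in the genome, so its reads may stem from either place. The Igll1 region, chr16:16864098-16864223, 175 bp upstream of the start, had signal in 25% and 14.9% of 0 h cells, in 5% of cells of 24 h run 1 and in none of the 72 cells of 24 h run 2. A count of 0 in 72 cells allows a share of up to 4.17%. A neighbouring Igll1 region 1432 bp upstream missed the rule, with 25% and 10.6% against 1.67% and 6.94%.

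Kinases and adaptors below the receptor were represented mainly by regions inside their genes. Lyn, a Src family kinase, had regions 4.95 kb inside the gene and 28.9 kb upstream. The former was seen in 12.5% and 19.1% of 0 h cells against 3.33% and 2.78% of 24 h cells, and the latter in 14.6% and 17% against 1.67% and 5.56%. The regions at the Lyn start itself did not meet the rule. The region 31 bp upstream had signal in 12.5% and 0% of 0 h cells and in 6.67% and 18.1% of 24 h cells, and the region 525 bp inside the gene had 12.5% and 12.8% against 8.33% and 6.94%. Plcg2, the phospholipase that gives rise to calcium signals, had 2 intronic regions in the set, with 25% and 14.9% against 6.67% and 0%, and 25% and 12.8% against 5% and 5.56%. The region 321 bp upstream of the start of Pik3ap1, which encodes the adaptor BCAP, was seen in 12.5% and 25.5% against 3.33% and 1.39%. The Pik3ap1 region 97 bp upstream did not meet the rule, with 10.4% and 8.51% against 15% and 2.78%. An intron of Inpp5d, which encodes the inositol phosphatase SHIP1, was seen in 14.6% and 21.3% against 3.33% and 1.39%. All 31 tested regions of this list, near starts and away, had a median log2 ratio of the mean 24 h to the mean 0 h share of -1.43. It was -0.90 over all tested regions more than 1 kb from a start site and -0.10 over those within 1 kb. Over the 10 lists these medians ran from -1.43 to -0.25, with the T-lineage list at -1.23. The ratio uses the same shares as the rule, so it adds nothing separate.

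B-lineage transcription factors contributed 7 of 71 tested regions (9.86%), close to the 7.98% of all regions. Mef2c, a MADS-box factor needed for B-cell survival and differentiation, held the largest difference of the list. Its region 1392 bp from the closest start had signal in 29.2% and 29.8% of 0 h cells and in 3.33% and 8.33% of 24 h cells. Another Mef2c region, 33.7 kb into the gene, had nearly level shares of 22.9%, 19.1%, 23.3% and 22.2%, and the third, 28.3 kb into the gene, missed the rule with 18.8% and 6.38% against 5% and 0%. Pou2f1, which encodes Oct-1, had 2 intronic regions in the set, and Fli1 of the ETS family, Runx3, the E-protein gene Tcf4 and the HMG-box repressor gene Hbp1 had 1 each. The Fli1 region, chr9:32504174-32504318, 37.3 kb inside the gene, was seen in 22.9% and 14.9% against 5% and 0%. Among the other 5 tested Fli1 regions, the one 25.6 kb inside the gene went the other way, with 4.17% and 4.26% of 0 h cells and 13.3% and 6.94% of 24 h cells. The Hbp1 region lies in an intron of the neighbouring gene Prkar2b, and its shares were 14.6% and 8.51% against 1.67% and 4.17%.

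In the list of the Myc network and the G1 phase of the cell cycle, 3 of 33 tested regions met the rule (9.09%, close to the 7.98% of all regions tested), the pair at E2f3 and 1 at Myc. The Myc region, chr15:61985014-61985201, 284 bp upstream of the start, was seen in 14.6% and 12.8% of 0 h cells and in 3.33% and 5.56% of 24 h cells. The region 85 bp inside Myc had 16.7% and 4.26% against 6.67% and 1.39%, so that 24 h run 1 exceeded 0 h run 2. For interleukin-7 receptor, PI3K and JAK-STAT genes the count was 3 of 30 (10.0%, also near 7.98%). An intronic region of Socs2, an inhibitor of cytokine receptor signalling, was seen in 16.7% and 14.9% against 1.67% and 4.17%. The Socs2 region 1204 bp upstream of the start did not meet the rule, with 12.5% and 4.26% against 1.67% and 9.72%. The kinase genes Akt1 and Jak1 had a region each, with 16.7% and 10.6% against 1.67% and 2.78% for Akt1, and 12.5% and 12.8% against 5% and 2.78% for Jak1. The Jak1 promoter, 19 bp upstream of the start, had 31.2% and 19.1% against 21.7% and 20.8% and did not meet the rule.

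Of 8 tested regions at genes of V(D)J recombination and end joining, 2 met the rule (25%, against 7.98% of all regions tested). Dntt encodes terminal deoxynucleotidyl transferase, which adds nucleotides at the joints of immunoglobulin gene segments. Its intronic region was seen in 20.8% and 17% of 0 h cells (10 of 48 and 8 of 47), in 1 of 60 cells of 24 h run 1 and in none of the 72 cells of 24 h run 2. This was a ratio of 10.2 between the lower 0 h and the higher 24 h share, and that higher share rests on 1 cell, with an exact 95% interval of 0.0422 to 8.94%. Hmgb1, whose DNA-bending protein assists the RAG recombinase, had a region 19.8 kb away with 14.6% and 10.6% against 1.67% and 2.78%. The Hmgb1 promoter was seen in 43.8% and 25.5% against 20.0% and 22.2% and did not meet the rule.

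For adhesion, homing and surface genes, 5 of 14 tested regions met the rule (35.7%, against 7.98% of all regions tested). The promoter of Cd93, a surface glycoprotein of early B-lineage cells, was seen in 22.9% and 21.3% of 0 h cells and in 5% and 1.39% of 24 h cells. Ptprc encodes the phosphatase CD45, and its intronic region had 27.1% and 17% against 5% and 8.33%. Of the integrin genes, the Itga4 region 685 bp upstream of the start had 25% and 14.9% against 6.67% and 4.17%. The Itga4 region 104 bp upstream did not meet the rule, with 18.8% and 4.26% against 13.3% and 5.56%. An exonic region of Itgal had 16.7% and 12.8% against 5% and 1.39%. Il2ra, which encodes CD25, had 16.7% and 10.6% against 3.33% and 1.39%. Ptprc, like Jak1, had a start-site region that ran differently, with 10.4% and 2.13% of 0 h cells and 13.3% and 2.78% of 24 h cells.

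Genes of other blood lineages were also among them, with 1 region each out of 5, 4 and 6 tested regions, counts too small to set against the 7.98% of all regions tested. The T-cell costimulator gene Cd28 had a region 43.5 kb upstream of its start with 20.8% and 14.9% against 5% and 1.39%. Near Tyrobp, which encodes the myeloid adaptor DAP12, a region was seen in 16.7% and 17% against 1.67% and 0%. Near Nfe2, an erythroid and megakaryocyte factor, the shares were 27.1% and 21.3% against 6.67% and 5.56%. The closest start site need not be the gene a region acts on. The summed detection of these lists was also highest in 0 h run 1, as given above, and its part in these differences was not tested.

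Of the B-cell defining genes, 2 of 14 tested regions met the rule (14.3%, against 7.98% of all regions tested), the Vpreb1 and Igll1 promoters already described. By the same rule turned around, which 1.55% of all tested regions met, 1 region of the Myc and G1 list and 1 of the erythroid and megakaryocyte list gained signal, and none of the other 8 lists had such a region. The lists were written with earlier results of these data known, so their counts do not support a direction. The lists were also not matched to all tested regions by place.

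Most of the 711 regions lay away from start sites. Within 1 kb of a protein-coding start were 176 (24.8%), in introns 263 (37%), in intergenic DNA 249 (35%) and in exons 23 (3.23%). With 1 run left out, the share away from starts was 46.1% of the 1191 regions that met the rule without 0 h run 2, no longer a majority, and 68.9%, 66.3% and 63.1% without 0 h run 1, 24 h run 1 and 24 h run 2, against 75.2% with all runs. Among all 8906 tested regions, 69.2% lay within 1 kb of a start, 13.2% in introns, 16.2% in intergenic DNA and 1.35% in exons. Put the other way, 22.4% of tested intronic, 17.2% of intergenic and 19.2% of exonic regions met the rule, but only 2.85% of those near a start. The 138 regions that gained signal by the reversed rule were near a start in 75.4% of cases. No protein-coding start lay within 50 kb of 165 of the 711 regions (23.2%, against 7.56% of tested regions).

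Detection and place go together, since regions near starts are detected in more cells, and the regions that met the rule were detected in a median of 19 cells against 23 for all tested. Within the regions detected in 15 to 19 cells, 300 of 1299 away from starts met the rule (23.1%) and 83 of 1552 near starts did (5.35%). The shares were 18.2% and 3.31% at 20 to 29 cells, and 12.4% and 0.88% at 30 to 49 cells. Without the mitochondria-like regions the share away from starts at 30 to 49 cells was 11.7% (44 of 376). From 15 to 49 cells the share was thus over 4 times higher away from starts. At 50 or more cells 7 of 65 regions away from starts met the rule (10.8%) and 1 of 414 near starts did (0.242%). All 7 match the mitochondrial genome, and without such regions 0 of 47 away from starts met the rule, so the difference by place did not hold in this class.

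**Figure D3:**
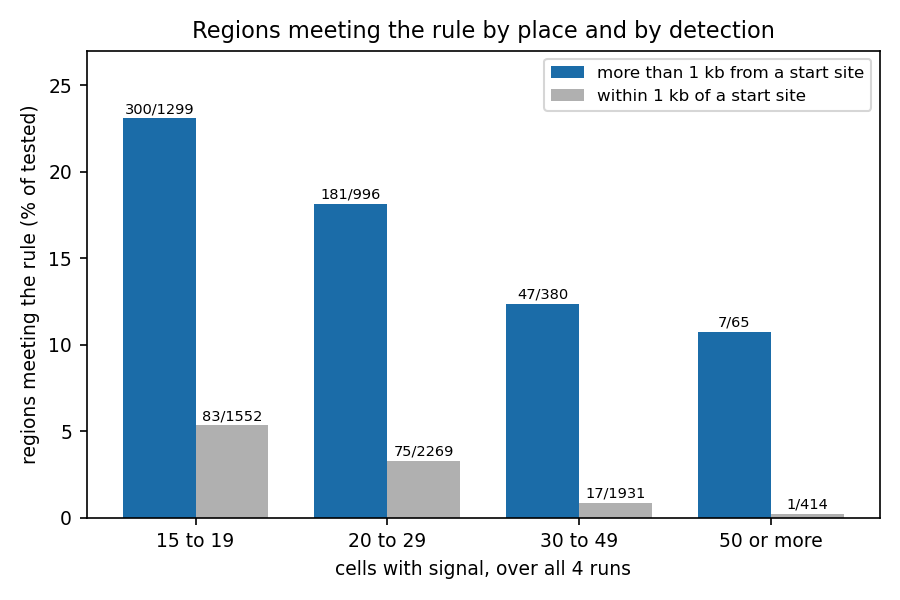
Bars give the percent of tested regions that met the rule, by the number of cells with signal over all 4 runs on the x axis, with the numbers of regions above each bar. Regions more than 1 kb from a start site met the rule more often than those within 1 kb up to 49 cells, with 23.1% against 5.35% at 15 to 19 cells, and the 7 at 50 or more cells all match the mitochondrial genome.

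GC content differed as well. The median was 54% in the 711 regions and 62.7% in all tested. A 150 bp window centred on each region held a median of 2 CG dinucleotides per 100 bp, against 7.33 in all tested. Within each place the gap was smaller, with 52.7% against 54.5% away from starts and 60.7% against 65.9% near starts. Away from starts, 24.7% of regions with a GC content under 50% met the rule, 22.3% of those from 50 to 60% and 8.82% of those at 60% or more. Near starts these shares were 5.99%, 5.49% and 1.99%. Place and GC content therefore each went with the share of regions that met the rule, and the part of GC content in the differences between runs was not tested.

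Width and repeat content differed little. Their median width was 144 bp against 149 bp, from 26 to 286 bp, 21 of them had more than 1 copy in the genome (2.95%, against 3.29% of tested regions), and 13 were mostly repeat-masked (1.83% against 1.03%). They were spread over all chromosomes with tested regions but Y. The share was highest on chromosome 12 (42 of 348 tested regions, 12.1%) and on chromosome 13 (55 of 470, 11.7%), and lowest among the other chromosomes on chromosome 7 (31 of 630, 4.92%).

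Several short motifs of lymphoid factors were more frequent in these regions than in all tested regions, and for the Runt, ETS and E-box motifs the gap was smaller when only regions away from starts were compared. Motifs were searched in a 150 bp window centred on each region, which can be wider or narrower than the region. The Ikaros core GGGAA, read on both strands, was present in 314 of the 711 (44.2%, exact 95% interval 40.5 to 47.9%) and in 37.5% of all tested. Away from starts it was present in 44.1% (39.9 to 48.4%) against 38.2% of tested, and near starts in 44.3% (36.9 to 52%) against 37.2%. The longer form TGGGAA, which contains the core, was present in 14.1% against 10.2%. Runt-domain factors bind TGTGGTT, which was present in 14.1% of the regions against 4.88% of all tested, and away from starts in 17.9% (14.8 to 21.5%) against 12.4%.

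For the ETS site AGGAAGT the shares were 20.1% against 9.71% in all and 23% (19.5 to 26.8%) against 18.5% away from starts. The E-box CAGCTG was present in 22.2% against 11.6% in all, and in 26.2% (22.5 to 30.1%) against 21.6% away from starts. The AP-1 site TGANTCA had 7.45% against 2.99%, and 8.60% against 5.69% away from starts. The E2A-type E-box CAGGTG and the EBF1 half-palindrome CCCNNGGG differed less away from starts, with 11.4% against 11.1% and 18.9% against 17.4%. The GC box GGGCGG ran the other way, with 16.6% against 47.4% in all and 7.29% (5.24 to 9.83%) against 17.7% away from starts. The Oct site ATGCAAAT, the forkhead site TGTTTAC, the IRF site GAAANNGAA and the MEF2 site TATTTATA were rare, with 1.97%, 1.13%, 4.50% and 0.563% of the regions against 1.57%, 1.10%, 2.98% and 0.505% of all tested. Away from starts the Oct, forkhead and MEF2 sites ran the other way, with 1.87%, 1.31% and 0.561% against 2.85%, 1.61% and 1.06%, and the IRF site had 4.67% against 3.91%. A match of these letters is a description of the sequence and not evidence of binding, and letters with more G and C are more likely in GC-rich DNA.

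The 711 regions were scattered over many genes rather than gathered at a few. With a start site within 50 kb, 546 regions were linked to 512 genes, 31 genes had 2 or more of them, and 48 regions had another one within 10 kb. Gfra2, a receptor subunit for the growth factor neurturin, had 3. Its promoter region was seen in 18.8% and 12.8% against 3.33% and 2.78%, and its regions 35.5 and 39.8 kb upstream in 14.6% and 12.8% against 1.67% and 1.39%, and in 41.7% and 23.4% against 10.0% and 2.78%. Cyth1, which encodes the ARF exchange factor cytohesin-1 of leukocytes, also had 3, as did Anapc15-ps, whose 3 regions lie 34.7 to 49 kb away from its start. Casp8, the initiator caspase of death receptors, had 2 near its start sites, with 31.2% and 23.4% against 6.67% and 2.78%, and with 14.6% and 14.9% against 5% and 2.78%. Ric8b had 2, of which the one 13.7 kb upstream, in an intron of Rfx4, was seen in 22.9% and 14.9% against 1.67% and 0%.

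There were 346 genes with a region of the set away from their start, and 138 of them had tested regions within 1 kb of a start, 160 in all. Of these 160, 9 met the rule themselves (5.62%, against 2.85% of all tested regions near starts). Their median log2 ratio of the mean 24 h share to the mean 0 h share was -0.23, against -0.10 for all tested regions near starts.

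A total absence of 24 h signal was seen in 6 of the 711 regions, all away from starts, with 15 to 20 cells at 0 hours. A count of 0 in 132 24 h cells allows a share of up to 2.27%. The region on chromosome 1 from 186407749 to 186407866, 290.5 kb from the Lyplal1 start, was seen in 31.2% and 10.6% of 0 h cells. An intron of Msh4, a gene of meiotic recombination, was seen in 18.8% and 21.3%, a region 230.8 kb from Saraf in 22.9% and 14.9%, an intron of Adamtsl2 in 18.8% and 14.9%, and an intron of Arhgap26 in 27.1% and 6.38%.

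Every cell at either time-point had signal in at least 1 of the 711 regions. They made up a median of 6.32% of the regions detected in a cell of 0 h run 1, 8.43% in 0 h run 2, 1.94% in 24 h run 1 and 1.37% in 24 h run 2. This share was lower in 0 h run 1, which had the deeper cells, than in 0 h run 2. The lowest cell at 0 hours was at 2.08% and the highest at 24 hours at 3.89%, so single cells of the time-points overlapped at the edges. The 24 h detections were gathered in fewer cells. The tenth of 24 h cells with the most of them, 13 cells, held 32.5% of the detections in the 711 regions, whereas the same measure over all tested regions was 21.9%. At 0 hours the corresponding shares, in 9 cells, were 20.8% and 23.2%.

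**Figure D4:**
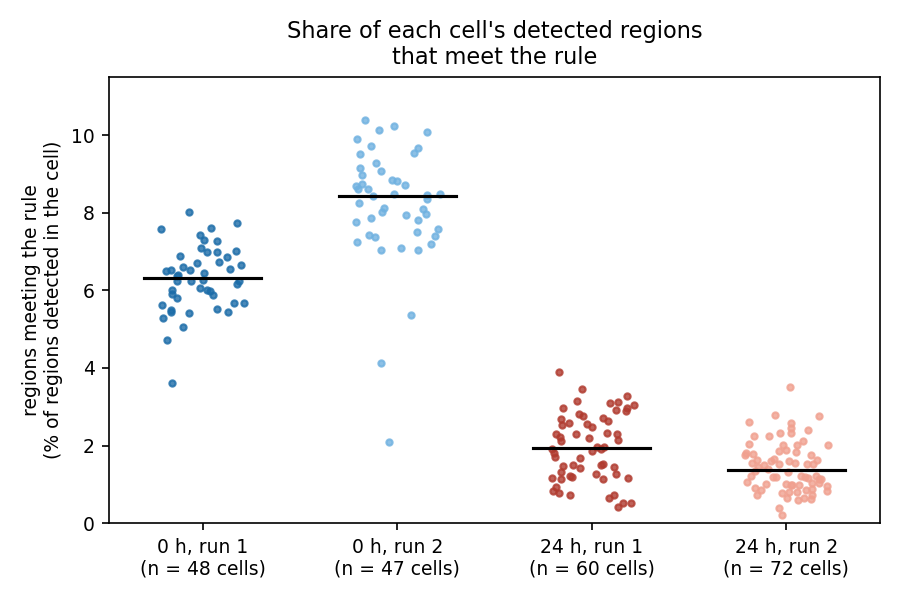
Each point is a cell, and the y axis gives the percent of its detected regions that belong to the 711, by C1 run, with a line at the median of each run. The medians were 6.32% and 8.43% in the 0 h runs and 1.94% and 1.37% in the 24 h runs, a difference that the choice of regions fixes.

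Values in the matrix are 0, 1 or 2, and the rule did not separate 1 from 2. Among the detections in the 711 regions the value 2 made up 57.7% and 53.9% in the 0 h runs and 53.4% and 53.8% in the 24 h runs. The mean difference of 2.18 percentage points gave p = 0.333 in a two-sided exact permutation test of the 4 runs, the smallest p that 2 runs against 2 allow, so this design cannot reach 0.05 and the test says nothing on whether the shares differed. In all tested regions the same shares were 56.5%, 52.7%, 54% and 56.7%. After each cell was thinned to 837 counts the difference in the 711 regions turned to -0.69 percentage points.

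A partial check used cells the choice did not. When the rule was applied to the odd-numbered cells of each run, with at least 8 cells, it chose 631 of 7943 regions. In the even-numbered cells 171 of the 631 (27.1%) again had a lower 0 h share at least 2 times the higher 24 h share, and 7.86% of all 7943 regions did. Both 0 h shares exceeded both 24 h shares in 56.3% of the chosen regions and in 25.3% of all. The mean shares of the chosen regions in the even-numbered cells were 19.4% and 11% at 0 hours and 7.14% and 4.71% at 24 hours. Their median 0 h shares in the even-numbered cells, 16.7% and 8.7%, were those of all 7943 regions, and the median in 0 h run 2 was lower there than the 16.7% in the odd-numbered cells that chose them. The median 24 h shares in the even-numbered cells were 6.67% and 2.78%, against 10.0% and 8.33% for all 7943. The odd- and even-numbered cells come from the same runs, so this repeats the measurement in other cells and not in other runs.

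The number of regions differed with the runs that were set against each other. With the 24 h runs as the higher pair, 138 regions met the rule (1.55%). For the 4 ways to mix the time-points, 289 regions (3.25%) were higher in 0 h run 1 and 24 h run 1, 350 (3.93%) in 0 h run 1 and 24 h run 2, 30 (0.337%) in 0 h run 2 and 24 h run 1, and 19 (0.213%) in 0 h run 2 and 24 h run 2. Both larger counts of a mixed pair include 0 h run 1, the run with the deepest cells. Of those 4 sets, 36.3%, 21.4%, 56.7% and 42.1% lay away from starts, against 75.2% of the 711. The counts use the same 4 runs and are given as descriptions only.

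Scaling for depth changed the balance of the directions, while most regions that lost signal lay away from starts under each of these scalings. With run sums divided by run totals, 484 regions met the rule and 430 met its reverse, and 428 of the 484 were among the 711. Thinned to 837 counts per cell, with 23 of the 227 cells too shallow to enter, 41 met the rule and 134 its reverse, of which 26 of the 41 were among the 711. With a minimum of 8 cells in the thinned data, in which fewer regions reach 15, the counts were 392 and 497, and 205 of the 392 were among the 711. The larger count was therefore on the 0 h side for shares as deposited and on the 24 h side after thinning. Of the regions that lost signal, 78.9%, 73.2% and 72.2% lay away from starts under these 3 settings, against 21.6%, 16.4% and 17.9% of those that gained it. Other properties moved, since mitochondria-like regions numbered 1 of 484, 5 of 41 and 5 of 392, and the Ikaros core was present in 46.1%, 41.5% and 38.5%, the last close to the 37.5% of all tested regions. The balance also changed without 0 h run 1, when 193 regions met the rule and 973 its reverse. Leaving out a run cannot undo the 2-fold ratio of the 711. Those of the 711 missing from the 193 thus fell short of the minimum number of cells in the runs that remained. After thinning, both 0 h shares exceeded both 24 h shares in 547 of the 711 (76.9%). Thinned cells hold part of the same counts that chose the 711, so this direction is largely fixed by the choice. The mean share over the 711 regions in thinned cells was 6.83% and 8.32% in the 0 h runs and 2.25% and 1.46% in the 24 h runs. Over all tested regions it was 5.69% and 5.31%, and 5.81% and 6.18%.

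**Figure D5:**
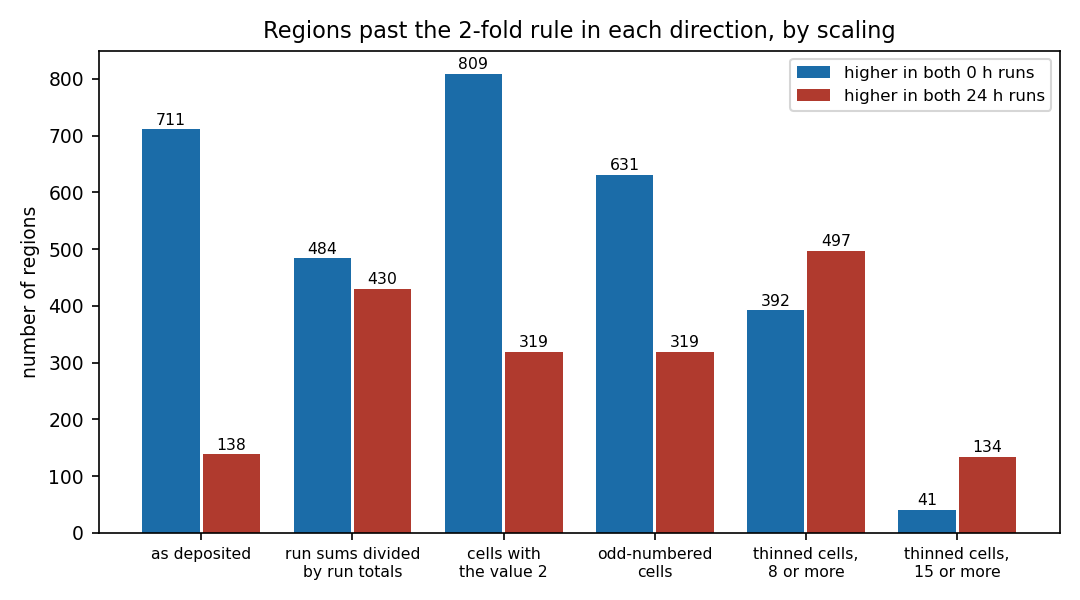
Bars give the number of regions past the 2-fold rule that were higher in both 0 h runs or higher in both 24 h runs, for the shares as deposited and for 5 other ways to scale or select the signal. The 711 against 138 regions as deposited became 484 against 430 with run totals and 392 against 497 in thinned cells with a minimum of 8 cells.

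In a fit across all 20103 regions, which uses the same contrast as the rule and so adds nothing independent, 3 regions were called higher at 0 hours (0.0149%) by edgeR's quasi-likelihood test after Benjamini-Hochberg adjustment, and 8 passed in the other direction (0.0398%). All 3 regions called higher at 0 hours were among the 711. The first, chr7:92442282-92442381 in an intron of Dlg2, was seen in 35.4% and 23.4% of 0 h cells and in 1.67% and 0% of 24 h cells. Another, chr13:107094586-107094730, 72.5 kb from the Kif2a start, was seen in 41.7% and 23.4% against 3.33% and 1.39%, and the last is the region far from Lyplal1 described above. The fitted log2 change of the 711 regions had a median of -1.88, against -0.06 over all regions, and with an offset for the number of cells, the scale nearest to the rule, -2.28 against -0.51.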

How the data were processed

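Single-cell ATAC-seq counts of ERt2-Ikaros B3 cells were used, with 2 C1 runs for each time-point. The authors aligned reads to mm10 with Bowtie2, removed duplicates with Picard, used HOMER for peaks of the bulk replicates and deposited unnormalized counts of each cell in these peaks, 20103 regions by 227 cells, with values from 0 to 2. The runs summed to 164357, 92639, 122586 and 142611 counts. The labels list 48, 63, 75 and 73 cells, and cells without a column were not analysed here. The bulk samples were not used. No doublet caller was run, since capture sites were inspected.

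A region's share is the percent of a run's cells with a value above 0. Intervals (exact Clopper-Pearson, 95%) and limits of a count of 0 (3 counts) cover counting error only. Regions were placed with the protein-coding transcripts of GENCODE vM21, near a start within 1 kb and linked to the closest start within 50 kb, and those with a start beyond that are named by it without a link. Sequences came from the RefSeq GRCm38.p6 genome, read with the deposited coordinates as 1-based, which no source states. Motif letters and CG dinucleotides were counted in a 150 bp window centred on each region, and GC content over the region itself. BLAST 2.17.0 found copies (90% identity over 80% of a region) and mitochondrial matches (E-value 1e-05). Run sums were tested with edgeR 4.0.16 on TMM-normalized counts, with DESeq2 1.42.0 as an alternative. Permutation tests used SciPy 1.17.1.

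The members, gene lists, motifs and alternatives were chosen with earlier results of these data known. Named regions were the 12 with the largest difference between the lower 0 h and the higher 24 h share, those linked to listed genes, those called by edgeR, 3 on each side of the threshold, 5 without 24 h signal and those of the 6 genes with the most regions. Other regions of listed genes were named for comparison after their values were seen.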

Additional observations from a re-analysis of the deposited data

How the results depend on the processing

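The number of regions that met the rule, 711, became 1426 with a minimum of 10 cells and 72 with 30, 1287 with a ratio of 1.5 and 312 with 3, and 41 in thinned cells or, in an alternative chosen after seeing the data, 392 with a minimum of 8 cells. Leaving out each run gave 193 to 1191 regions, namely 193 when 0 h run 1 was left out, 1191 for 0 h run 2, 1133 for 24 h run 1 and 826 for 24 h run 2, and 142, 234, 539 and 572 of these were among the 711. The 2-fold ratio of the 711 holds with any run left out. Those of the 711 not kept thus fell short of the minimum number of cells in the remaining runs. Without 0 h run 1, 973 regions met the reversed rule. Run totals, the value 2, odd-numbered cells and leaving out multi-copy or mitochondria-like regions kept the count within 1.5 times. The odd-numbered cells used a minimum of 8 cells. The regions themselves changed more. With run totals 428 of 484 were among the 711, with the value 2 443 of 809, and in odd-numbered cells 301 of 631. The reversed rule was met by 430, 319 and 319 regions in these 3 settings, against 138.

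edgeR called 3 regions higher at 0 hours and 8 at 24 hours, 3 of them among the 711, and 1407 and 1028 at an unadjusted p under 0.05. With run totals it called 12 and 21 (10 among the 711), when a region needed signal in 10% of cells 10 and 8 (10), with an offset for cell numbers 3 and 0 (3), and with values reduced to detected or not detected 0 and 0 (0; unadjusted 1340 and 1150). DESeq2 called 0 and 0 (0; unadjusted 633 and 452). Leaving out each run gave 0 to 341 calls higher at 0 hours, 1 to 456 higher at 24 hours and 0 to 154 among the 711, and the highest of each was without 24 h run 1, where the remaining run is assumed to vary like the 0 h runs. No paired numbering is stated, and with the replicate number as a block the calls were 2 and 9 (2 among the 711), while the deviations of same-numbered runs correlated at -0.022. None of the 711 that were fitted had a log2 change above 0 under any setting other than without 0 h run 2, where 4 did. The rule that chose the regions largely fixes this sign, so it shows no stability. The setting with signal in 10% of cells fitted 4761 regions, which do not include all of the 711.

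The difference in the share of the value 2 was 2.18 percentage points, 0.26 to 4.11 with each run left out and -0.69 in thinned cells. The share of regions near a start, 24.8%, was 29.4% within 2 kb and 31.2% with all annotated genes, where all tested regions had 72.2% and 72.9%, and 21.1% for regions chosen by run totals. Of the regions that met the rule with a run left out, 46.1% (without 0 h run 2) to 68.9% (without 0 h run 1) lay away from starts, against 75.2% with all runs. The Ikaros core, present in 44.2%, was present in 38.5% of the regions chosen in thinned cells with a minimum of 8 cells. With most regions seen in under 30 cells (89.9% of the 711), a share of a run rests on a few cells, and the causes of these shifts were not tested.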
